A study of Peromyscus californicus with 17 samples.

Results

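The genes described here mark B cells and the plasma cells that arise from them. They were chosen by symbol, and 7 of the 8 symbols (Cd79a, Cd79b, Ms4a1, Pax5, Cxcr5, Jchain and Mzb1) have a row among the 27786 genes of the deposited table. The eighth, Cr2, the complement receptor of follicular B cells, has no row with that symbol and was not analysed here. The values are from the lungs of 17 male Peromyscus californicus of stock IS, a monogamous deer mouse, aged 12 to 15 months. In the bonded group, 6 animals (B1 to B6) had lived with a mate for about 4 months. In the bond-disrupted group, 6 animals (BD1 to BD6) had been paired for as long, were then taken from the mating cage and were sampled at day 7. The study says that its bond-disrupted serum donors lived alone for at least a week after separation. If the lung donors did too, loss of the mate and single housing cannot be told apart. The 5 virgin animals (V2 to V6) were of similar age and were housed 3 per cage by the labels and the study's methods, and 2 or 3 per cage by another passage of the study, so that bonding and company in the cage cannot be told apart between bonded and virgin animals. The animals were genetically diverse, and animals with the same number are relatives (B2, BD2 and V2 are siblings, V3 is a cousin of B3 and BD3). Each animal gave 1 library of whole lung RNA.

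B cells recognise antigen through a membrane antibody that signals by way of a pair of partner chains, encoded by Cd79a and Cd79b. On activation some become plasma cells, which switch off Pax5 and much of the B cell programme and secrete antibody in quantity. In the airways much of that antibody is dimeric IgA, which is held together by the joining chain and carried across the epithelium by the polymeric immunoglobulin receptor. Lung RNA can therefore hold a B cell and a plasma cell component, whose sizes beside the epithelium were not measured here. In RNA from whole tissue, fewer cells of a type and less RNA per cell cannot be told apart.

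Levels are given as FPKM, which scales the fragments of a gene to its length and to the depth of the library. In the deposited table the length that divides each value is not the gene's own but that of a gene 1 row above it in the first column and 1 row further in each next column. The borrowed lengths spread the members widely. Cd79b was divided by lengths from 70 to 7065 bases in place of its own 1235, and Pax5 by lengths from 75 to 7501 in place of 10693. As deposited, Pax5 ran from 0.785 to 168 FPKM, and Mzb1 from 0.529 to 200. All values below were recomputed with each gene's own length, which was recovered together with the reads from the values themselves. With own lengths, Pax5 ran from 0.272 to 2.87 FPKM. Over 9506 well-covered genes the SD of log2 FPKM among the animals had a median of 1.53 before and 0.227 after this correction. The recovery drew in part on the levels of genes across animals, so this fall is not an independent check of it. The library depths recovered in this way were 30800000 to 68200000 reads in bonded animals, 43900000 to 59400000 in bond-disrupted animals and 38000000 to 44900000 in virgins, and are known up to a factor of 2. A length could not be settled for 3.57% of the values above 0. Among the members this left out Jchain in V2, V3, V5 and V6 and Mzb1 in BD3.

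The B cell genes Cd79a, Cd79b, Ms4a1, Pax5 and Cxcr5 had similar group medians and differed several-fold between animals of the same group. Their level was lowest in the same 2 animals, B5 and BD2, and highest in BD4 in all but Cxcr5. Between the highest and the lowest animal, the plasma cell members differed 85.0-fold (Jchain) and 23.7-fold (Mzb1), and Jchain was highest in B3 and BD6. Other plasma cell markers differed less, by 5.12-fold (Irf4), 2.52-fold (Prdm1, n = 13), 1.85-fold (Tnfrsf17) and 1.66-fold (Xbp1). No difference of a member between bonded, bond-disrupted and virgin animals passed the test used. The plot of each member in every animal shows these values.

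**Figure D1:**
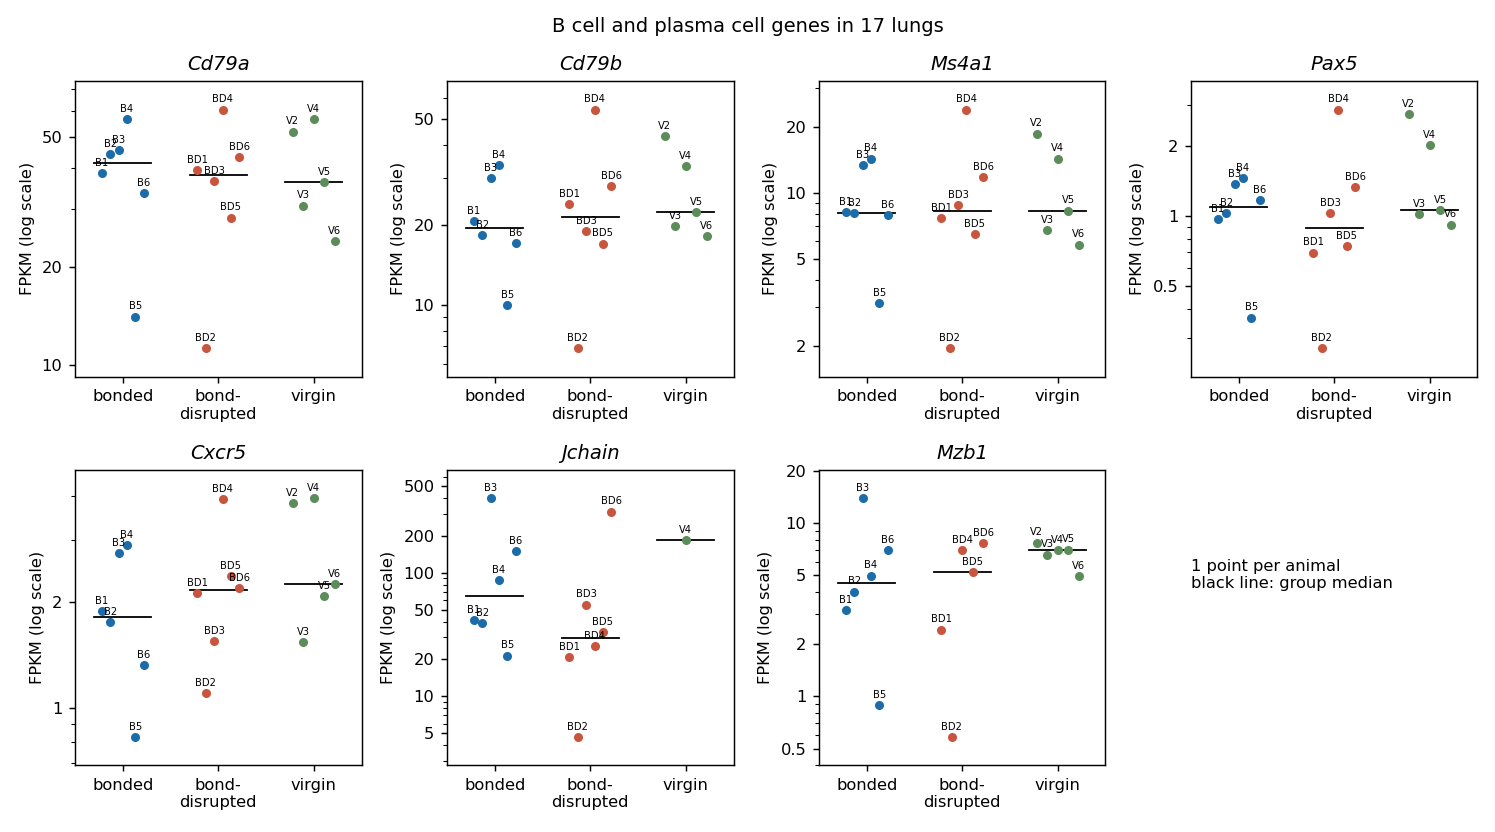
FPKM with own length (log scale) of the 7 genes in each animal, by group, with 1 labelled point per animal and a black line at the group median. B5 and BD2 lie at the bottom and BD4 near the top of the panels from Cd79a to Cxcr5, while Jchain is highest in B3 (400) and BD6 (312); Jchain could be settled in 1 virgin (V4, 185).

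Cd79a and Cd79b encode the signalling chains of the B cell receptor. Cd79a measured 38.8, 44.2, 45.5, 56.6, 14.1 and 33.6 FPKM in B1 to B6. It measured 39.6, 11.3, 36.6, 60.5, 28.3 and 43.4 in BD1 to BD6, and 51.8, 30.8, 56.5, 36.4 and 24.01 in V2 to V6. The ranges of the 3 groups overlapped almost wholly, and the means were 38.8 ± 14.4 (SD, n = 6) in bonded, 36.6 ± 16.3 (n = 6) in bond-disrupted and 39.9 ± 13.8 (n = 5) in virgin animals. Cd79b measured 20.6, 18.3, 30.0, 33.5, 10.03 and 17.1 FPKM in B1 to B6. It measured 23.9, 6.88, 18.9, 54.1, 17.03 and 27.9 in BD1 to BD6, and 43.1, 19.7, 33.3, 22.3 and 18.1 in V2 to V6. The value of BD4 was 7.87 times that of BD2, in the same group. The siblings B2, BD2 and V2 held 18.3, 6.88 and 43.1 FPKM, so that the lowest and the second highest of the 17 values came from 1 family.

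Ms4a1 encodes CD20, a surface protein of B cells that is lost in plasma cells. It measured 8.13, 8.04, 13.3, 14.3, 3.14 and 7.90 FPKM in B1 to B6. It measured 7.65, 1.95, 8.79, 23.9, 6.45 and 11.8 in BD1 to BD6, and 18.6, 6.75, 14.3, 8.27 and 5.79 in V2 to V6. The medians of the groups, 8.09, 8.22 and 8.27, lay within 0.2 FPKM of each other, and the bond-disrupted animals alone covered a 12.3-fold range. Cxcr5 is the receptor by which B cells follow Cxcl13 into lymphoid follicles. It ranged from 0.828 to 2.89 FPKM in bonded, from 1.10 to 3.92 in bond-disrupted and from 1.54 to 3.93 in virgin animals, with means of 1.90 ± 0.7997 (SD, n = 6), 2.21 ± 0.962 (n = 6) and 2.72 ± 1.08 (n = 5).

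Pax5, the transcription factor that sets and keeps B cell identity, was the least abundant member per length. It measured 0.9754, 1.03, 1.37, 1.46, 0.368 and 1.17 FPKM in B1 to B6. It measured 0.699, 0.272, 1.03, 2.87, 0.747 and 1.33 in BD1 to BD6, and 2.75, 1.02, 2.02, 1.06 and 0.921 in V2 to V6. The highest values, in BD4 and V2, were in different groups, as were the lowest.

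Jchain, the joining chain of dimeric IgA and of IgM, was at 41.5, 39.3, 400, 87.6, 21.3 and 149 FPKM in B1 to B6 and at 20.7, 4.70, 55.1, 25.5, 33.3 and 312 in BD1 to BD6. In each of these groups 1 or 2 animals were far above the rest. The settled values thus covered an 85.0-fold range, from BD2 to B3, the widest of the 7 members. Of the virgins, V4 had 185 FPKM. The likeliest lengths would give 83.9 FPKM in V2, 32.6 in V3 and 42.5 in V5, but they did not lead other lengths by the margin set, and V6 has none. Mzb1, a chaperone of antibody assembly in the endoplasmic reticulum, was at 3.16, 4.03, 13.9, 4.98, 0.887 and 6.98 FPKM in B1 to B6. It was at 2.43, 0.585, 7.02, 5.21 and 7.69 in the bond-disrupted animals other than BD3, and at 7.73, 6.59, 6.96, 7.04 and 4.97 in V2 to V6. The virgin values lay within a 1.55-fold range, against 15.6-fold in bonded and 13.2-fold in bond-disrupted animals; the difference in spread was not tested.

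By median over the animals, the order of the members per length was Jchain (41.5 FPKM, n = 13), Cd79a (38.8, n = 17), Cd79b (20.6), Ms4a1 (8.13), Mzb1 (5.90, n = 16), Cxcr5 (2.12) and Pax5 (1.03). Jchain and Cd79a, neighbours in this order, changed places from animal to animal. The ratio of Jchain to the summed Cd79a and Cd79b was 0.223 in BD4 and 5.30 in B3. By contrast, Cd79a stood to Cd79b at 1.12 (BD4) to 2.42 (B2) in all 17 animals. From the recovered reads, taken as pairs, counting error at the lowest animal ran from 5.64% (Jchain) to 18.6% (Cxcr5) and 21.8% (Mzb1, 42.0 reads in BD2) of the level. The coefficient of variation over animals, which includes it, was 36.7% for Cd79a, 42.1% for Cxcr5, 56.7% for Mzb1 and 117% for Jchain.

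The first comparison asks whether the members changed a week after a bond was broken. Bond-disrupted animals differed from bonded animals by a log2 fold change of -0.12 for Cd79a (95% interval -0.90 to 0.65), 0.06 for Cd79b (-0.75 to 0.86), -0.03 for Ms4a1 (-0.94 to 0.89), 0.00 for Pax5 (-0.50 to 0.50) and 0.14 for Cxcr5 (-0.34 to 0.62), on the log2(FPKM + 1) scale with limma. Their adjusted p-values were 0.950 to 1.00. Without BD2 the values were 0.17 for Cd79a, 0.35 for Cd79b, 0.30 for Ms4a1, 0.13 for Pax5 and 0.25 for Cxcr5. Without BD4 they were -0.21 for Cd79b and 0.01 for Cxcr5, and without B5 they were -0.13 for Cd79b and 0.02 for Cxcr5. Leaving out B3 or B4 also turned the sign of Ms4a1 (0.10 and 0.11). Mzb1 differed by -0.22 (-1.23 to 0.79, adjusted p = 0.969, 5 against 6 animals), and by 0.17 without BD2 and 0.06 without B3. Jchain differed most, by -1.11 (-3.06 to 0.83, limma adjusted p = 0.890), and its groups overlapped. Without B3 the Jchain value was -0.64 (limma adjusted p = 0.893), without BD2 it was -0.59 (0.880), and without BD6 it was -1.74 (0.829). On all libraries, Jchain with the replicate number as a block had the same -1.11 (adjusted p = 0.857). For a gene to be called, its adjusted p had to be under 0.1 and its level had to differ by 2-fold or more. This was met by 0 of the 7 members and by 0 of the 15795 genes tested (0%), while 913 genes (5.78%, with 2.73% higher and 3.05% lower) had an unadjusted p under 0.05, with none of the members among them.

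**Figure D2:**
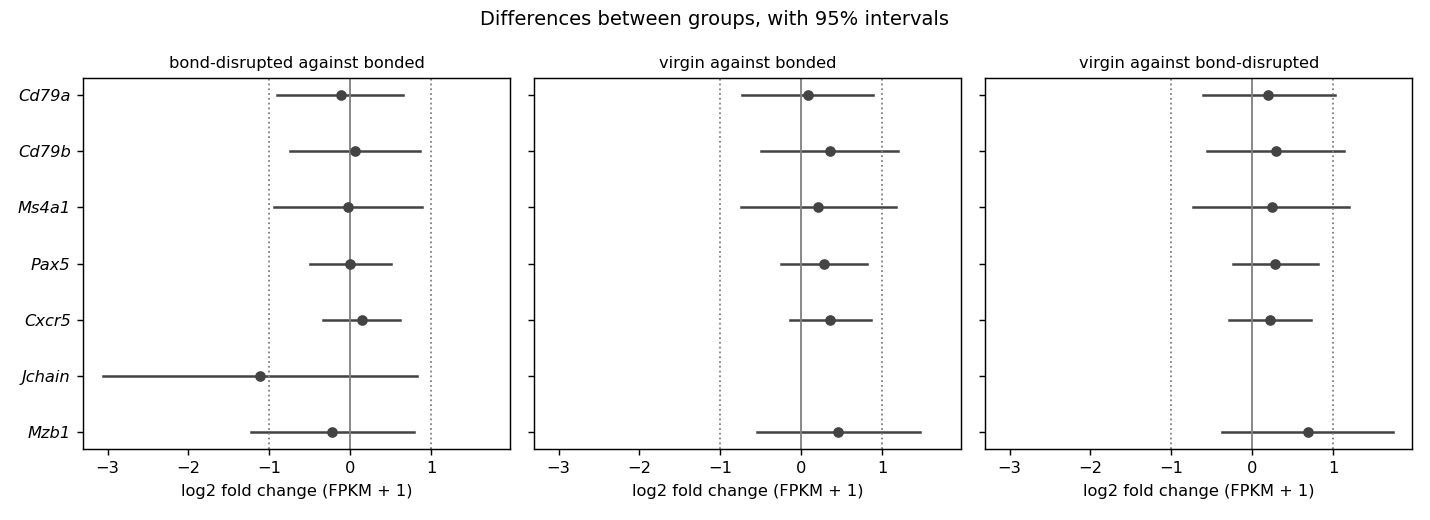
Log2 fold change of each gene on the log2(FPKM + 1) scale (points) with its 95% interval (lines) in the 3 comparisons; dotted lines mark a fold change of 2 either way, and Jchain has no value against virgins. Every interval contains 0, and that of Jchain, from -3.06 to 0.83, is the widest.

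Against bonded animals, no value of virgins was past the threshold for the 6 members with enough settled values. With the likeliest length in every animal (4 virgins), an alternative chosen after seeing the data, Jchain differed by -0.15 (-2.16 to 1.87, limma adjusted p = 1.00) from bonded and by 0.97 (-1.05 to 2.98, adjusted p = 0.953) from bond-disrupted animals. For the other members against bonded animals, the log2 fold changes were 0.08 for Cd79a (-0.73 to 0.89), 0.35 for Cd79b (-0.50 to 1.19), 0.21 for Ms4a1 (-0.75 to 1.17), 0.28 for Pax5 (-0.25 to 0.81), 0.36 for Cxcr5 (-0.14 to 0.86) and 0.46 for Mzb1 (-0.55 to 1.47). The adjusted p was 1.00 for each. The sign turned without B5 for Cd79a (-0.18) and Ms4a1 (-0.03), without V2 for Cd79a (-0.03) and Ms4a1 (-0.01), and without V4 for Cd79a (-0.06). Without B5 the values were 0.16 for Cd79b, 0.17 for Pax5, 0.23 for Cxcr5 and 0.15 for Mzb1, without V2 they were 0.17 for Cd79b and 0.13 for Pax5, and without B3 Mzb1 was at 0.75. Here 0 of 15715 genes were called (0%), and 567 (3.61%, with 1.99% higher and 1.62% lower) had an unadjusted p under 0.05 in limma, none of them a member. Against bond-disrupted animals, virgins differed by 0.20 for Cd79a (-0.61 to 1.02), 0.29 for Cd79b (-0.56 to 1.14), 0.24 for Ms4a1 (-0.73 to 1.20), 0.28 for Pax5 (-0.24 to 0.81), 0.22 for Cxcr5 (-0.29 to 0.72) and 0.69 for Mzb1 (-0.37 to 1.74, 5 against 5 animals), with adjusted p from 0.946 to 0.964. Without BD2 the values were -0.09 for Cd79a, -0.01 for Cd79b, -0.09 for Ms4a1, 0.15 for Pax5, 0.10 for Cxcr5 and 0.29 for Mzb1. Without BD4 they were 0.38 for Cd79a, 0.55 for Cd79b, 0.52 for Ms4a1, 0.47 for Pax5 and 0.35 for Cxcr5. Without V2 Pax5 was at 0.13 and Cxcr5 at 0.11, and without V4 Cxcr5 was at 0.10. Of 15717 genes, 0 were called (0%) and 678 (4.31%, with 2.23% higher and 2.08% lower) had an unadjusted p under 0.05, again with no member. The 3 comparisons share samples, so that their values are not independent. With limma voom on the recovered reads, 0, 1 and 1 genes were called in these comparisons, and a fit blocked on the replicate number also gave 0, 1 and 1, none of them a member. As folds, the intervals of bond-disrupted over bonded animals ran from 0.520 to 1.85 for Ms4a1 and from 0.792 to 1.54 for Cxcr5. On the scale used, differences of genes near 1 FPKM are understated. With a pseudocount of 0.01, Pax5 stood 0.52 higher in virgins than in bonded animals (unadjusted p = 0.316 in limma).

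The spread between animals was larger for the members than for most genes. The pooled SD within groups on the log2(FPKM + 1) scale was 0.68 for Cd79a, 0.71 for Cd79b, 0.80 for Ms4a1, 0.44 for Pax5, 0.42 for Cxcr5, 0.85 for Mzb1 and 1.71 for Jchain, against a median of 0.20 over 14105 genes with a mean of at least 1 FPKM. That of Cd79b exceeded the SD of 95.8% of these genes, and that of Jchain exceeded 99.7%. B5 and BD2 were the lowest 2 of 17 in all 5 B cell members. BD4 was among the highest 2 in all 5, and V2 in 3. B5 had 34600000 reads, BD2 had 44000000, and BD4 had 59400000, the second deepest library. Across the 17 animals, with group means subtracted, the mean deviation of the 5 members correlated with log2 depth at r = 0.310, and the part of depth in the pattern was not tested.

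The members varied together across animals. With group means subtracted, Cd79a and Cd79b correlated at r = 0.937 (Spearman rho 0.966, n = 17), with p = 1e-05 for both in a two-sided permutation test within groups, the smallest that 100000 permutations can give, and 2.00e-05 after Benjamini-Hochberg adjustment over the 4 pairs computed. Without B5 and BD2, the animals farthest from the median, r was 0.901. Cd79a and Ms4a1 correlated at r = 0.950 (rho 0.951, n = 17), at the same smallest p, and at 0.917 without B5 and BD2. The animals include siblings and are not fully independent, and the members share each library. Over the 10 pairs of B cell members, r was 0.836 (Cd79a with Cxcr5) to 0.986 (Cd79b with Ms4a1).

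The plasma cell genes Jchain and Mzb1 also varied together. They correlated at r = 0.868 (rho 0.891) over the 11 bonded and bond-disrupted animals with both values, with a permutation p of 0.00127 for r (adjusted 0.00169) and 0.000270 for rho (adjusted 0.000360). Without B3 and BD6, r was 0.890. Ms4a1 and Jchain correlated at r = 0.615 (rho 0.594, n = 12), with permutation p of 0.0534 (adjusted 0.0534) and 0.0551 (adjusted 0.0551), which did not pass 0.05, and at 0.710 without BD2 and BD4. With the likeliest length in every animal (n = 16) this r was 0.635 and rho 0.671, with unadjusted permutation p of 0.0242 and 0.00977, so that whether this relation passed 0.05 depends on the unsettled lengths. The animal that stood apart here was BD4, which had the highest Ms4a1 (23.9 FPKM) and a Jchain of 25.5 FPKM. Jchain correlated with the 5 B cell members at r = 0.432 to 0.615, and Mzb1 at 0.661 to 0.784. Whether the correlations of the 2 kinds of genes differ was not tested.

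**Figure D3:**
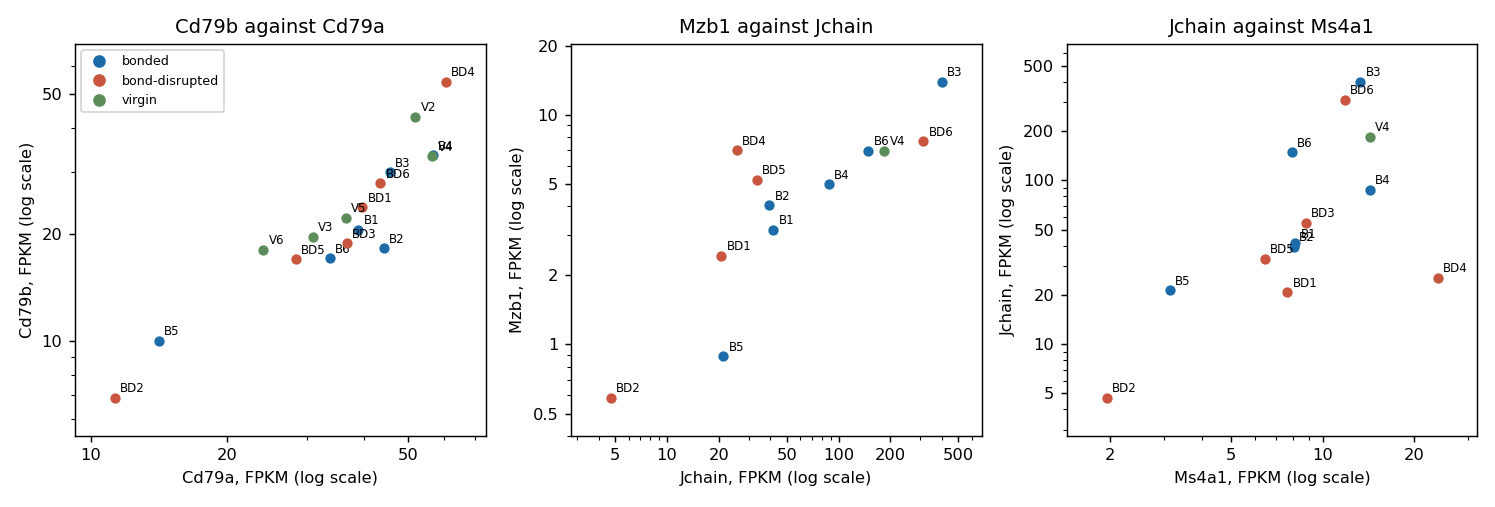
Levels of Cd79b against Cd79a, Mzb1 against Jchain and Jchain against Ms4a1 in FPKM with own length (log scales), 1 labelled point per animal, coloured by group. B5 and BD2 are at the low end of each panel, and in the third panel BD4 combines the highest Ms4a1 (23.9) with a Jchain of 25.5.

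Of the 9359 other genes with a mean of at least 1 FPKM and a settled value in every animal, those most like the B cell members were themselves known from B cells. Over 17 animals with group means subtracted, the nearest to Cd79a were Cd37 (r = 0.952), a tetraspanin of B cells, Ms4a1 (0.950) and Fcrla (0.944), an Fc receptor-like protein of B cells. Cd79b had Ms4a1 (0.986) and Fcrla (0.972) as its nearest genes. For Ms4a1 they were Cd79b (0.986) and Fcrla (0.976). Pax5 was nearest to Ms4a1 (0.961), Cd22 (0.946), an inhibitory co-receptor, and Spib (0.944), an Ets factor of B cells. Cxcr5 was nearest to Fcrla (0.927), Fcer2 (0.905), the low-affinity IgE receptor CD23, and Cd79b (0.901). Mzb1 was nearest to Irf4 (0.921, n = 16), a factor needed for plasma cells, Ly9 (0.873) and Irf5 (0.866). Jchain was nearest to Cd83 (0.957), LOC128102990 (0.951) and Prkcb (0.935), over 12 animals. No p is given for these values, since the genes were picked for their r.

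Most genes of the B cell receptor complex and its signalling varied with the members. Of 15 list genes with a mean of at least 1 FPKM and a value in 12 or more animals, 14 had r above 0.5 with the mean deviation of the 5 B cell members. The exception was Cd81 (r = -0.00321), a tetraspanin that many lung cells make. Of the 9359 genes with a value in every animal, 7.81% had r above 0.5. Of 10 B lineage transcription factors, 7 had r above 0.5, led by Ikzf3 (0.930) and Spib (0.924). The others were Bach2 (0.361, n = 15), Bcl6 (-0.0973, n = 16), a factor of germinal centre B cells, and Ebf1 (-0.123, n = 16), an early B lineage factor. Ebf1 was highest in BD2 (4.35 FPKM), where the B cell members were lowest or second lowest. Of 11 genes of follicles and homing, 4 had r above 0.5, led by Fcer2 (0.911). Of 8 survival factors and receptors it was 4, led by Il21r (0.889) and Tnfrsf13c (0.833, n = 16), the BAFF receptor. Of 15 plasma cell genes it was 4, led by Irf4 (0.798), with Derl3, part of protein quality control in the endoplasmic reticulum, lowest (-0.518).

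T cell genes varied with the B cell genes. Of the 10 T cell markers, 6 had a row (Cd2, Cd5, Cd6, Lck, Cd4 and Cd8a), and none of the CD3 chain genes did. All 6 had r above 0.5 with the mean deviation of the B cell members, from 0.643 for Cd5 to 0.935 for Cd2. The 6 genes summed to 20.6 FPKM in BD2 and 27.7 in B5, the lowest values of the 17 animals, and to 27.7 to 90.2 in bonded, 20.6 to 71.1 in bond-disrupted and 41.2 to 98.4 in virgin animals. The log2 of this sum correlated with the mean deviation of the B cell members at r = 0.872 (n = 17), and that of 5 lung epithelium markers at -0.386. Most of the epithelial sum was 1 gene, Scgb1a1 (49032 to 171963 FPKM), with r = -0.390 by itself. Sftpc had r = 0.225, Ager -0.0683 and Sftpb -0.143, so that the value for the sum does not describe the epithelial markers in general. The epithelial sum was 75865 to 151605 FPKM in bonded, 93332 to 150158 in bond-disrupted and 75930 to 195416 in virgin animals. In bond-disrupted against bonded animals 1 of these epithelial genes, Sftpb, a surfactant protein, had an unadjusted p under 0.05 (log2 fold change 0.43, limma adjusted p = 0.803), as it did in virgin against bonded animals (0.39, adjusted p = 1.00). Rag1 and Rag2, which cut the receptor genes in developing lymphocytes, were near 0, at up to 0.0976 and 0.0410 FPKM. The part that T cell content has in the patterns of the members was not tested.

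**Figure D4:**
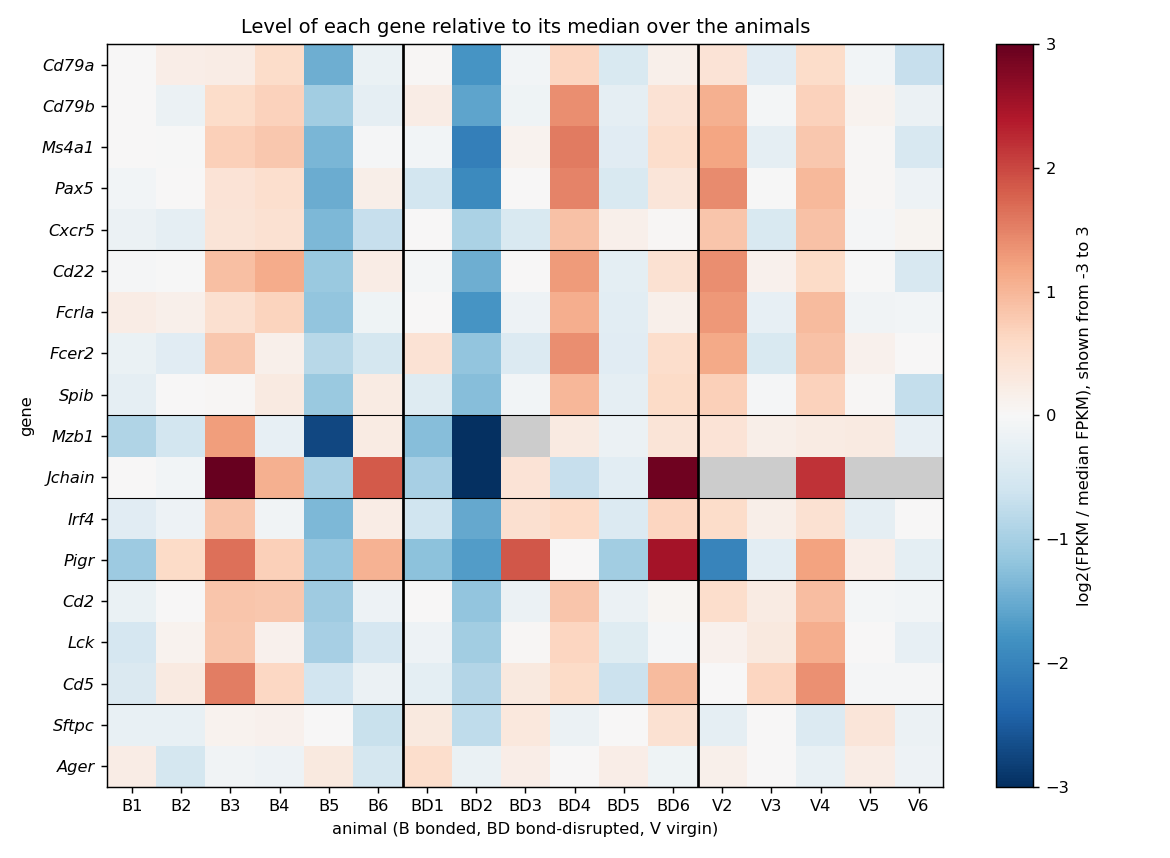
Level of each gene (rows) in each animal (columns) as log2 of FPKM over the gene's median, from blue (low) to red (high), grey where no length was settled; black lines separate the 3 groups of animals and the sets of B cell, plasma cell, T cell and epithelial genes. The columns of B5 and BD2 are blue from Cd79a to Lck, and those of BD4 and V2 are red in the B cell rows.

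The lists of related genes were compared between groups with the same fit. In bond-disrupted against bonded animals, 0 of 15 tested genes of receptor complex and signalling, 0 of 11 B lineage transcription factors, 0 of 15 plasma cell genes, 0 of 7 survival factors and receptors, 0 of 13 genes of follicles and homing and 0 of 2 of antibody transport were called, and none had an unadjusted limma p under 0.05. Their median log2 fold changes were 0.00, 0.00, -0.04, 0.04, 0.11 and -0.15, where that of all genes was 0.00. In the comparisons with virgins no list gene was called either, and those with an unadjusted p under 0.05 were Cd81, Sdc1, Tnfsf13b and Ccr7 against bonded and Prdm1, Tnfrsf17 and Tnfsf13b against bond-disrupted animals. The medians against bonded animals were 0.10 for receptor complex and signalling, 0.12 for the transcription factors, 0.06 for the plasma cell genes, -0.09 for survival factors, 0.03 for follicles and homing and -0.26 for antibody transport, beside 0.00 for all genes. Against bond-disrupted animals they were 0.17, 0.08, 0.18, 0.04, -0.07 and -0.11, beside 0.01.

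A few list genes had the smallest p-values, none of which held after adjustment over all genes. Sdc1, which encodes the plasma cell surface protein CD138 and is also made by epithelium, was at 112 ± 15.1 FPKM (SD, n = 5) in virgins and 87.9 ± 9.85 (n = 6) in bonded animals. Its log2 fold change was 0.34 (limma adjusted p = 1.00). Prdm1, which drives plasma cell fate, had a log2 difference of 0.41 between virgin and bond-disrupted animals (4 values each, adjusted p = 0.946 in limma). Tnfrsf17, the plasma cell survival receptor BCMA, was at 2.32 ± 0.214 FPKM (n = 5) in virgins and 1.79 ± 0.305 (n = 6) in bond-disrupted animals. Its log2 difference was 0.26 (limma adjusted p = 0.946). BAFF, which is not its only ligand and is encoded by Tnfsf13b, was at 7.10 ± 1.15 FPKM in virgins and 9.56 ± 2.79 in bond-disrupted animals. The log2 difference was -0.36 (limma adjusted p = 0.946). Ccr7, which brings lymphocytes into lymphoid tissue, was at 19.1 ± 9.95 FPKM (n = 5) in virgins and 10.9 ± 4.40 (n = 6) in bonded animals, with a log2 fold change of 0.71. Among the virgins V4 stood apart at 36.7 FPKM, and the others held 12.9 to 17.4, so that the value of Ccr7 rests in part on 1 animal. The limma adjusted p of Ccr7 was 1.00.

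The other list genes with the smallest p in their lists did not pass the test. Against bonded animals the log2 fold changes of virgins were 0.26 for Cd81, 0.41 for Fcmr, the IgM receptor, 0.21 for Bach2 and 0.37 for Ikzf3, both B cell transcription factors, 0.47 for Il21r and -0.52 for Pigr. The limma adjusted p was 1.00 for each. Against bond-disrupted animals they were 0.45 for Fcrla, 0.11 for Tcf3, -0.26 for Il6 and 0.10 for Fcgrt, the antibody recycling receptor, with limma adjusted p of 0.946 to 0.960. Of the T cell markers, Cd8a (0.58) and Cd2 (0.38) had values of the same sign in that comparison (limma adjusted p = 0.946 for both), as did Lck (0.36, adjusted p = 1.00) against bonded animals. No marker of plasmacytoid dendritic cells, follicular dendritic cells, thymocytes, proliferating cells, macrophages, T cells or lung epithelium was called in any comparison.

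Cxcl13, the ligand of Cxcr5, ran from 0.996 to 9.54 FPKM in bonded, from 1.81 to 8.98 in bond-disrupted and from 0.201 to 8.12 in virgin animals. Virgins differed from bond-disrupted animals by -1.06 on the log2 scale (limma adjusted p = 0.946). The lowest value was that of V6, and the other virgins held 1.13 to 8.12 FPKM, so that this difference rests in part on 1 animal. Irf4 was at 2.31 ± 1.06 FPKM (n = 6), 2.42 ± 1.21 (n = 6) and 2.71 ± 0.614 (n = 5) in bonded, bond-disrupted and virgin animals. Xbp1, the factor of the secretory programme, which epithelium also makes, was at 128 ± 10.1, 129 ± 22.8 and 119 ± 14.3 FPKM. Pigr, the epithelial carrier of dimeric antibody, ran from 44.6 to 311 FPKM in bonded and from 31.0 to 557 in bond-disrupted animals. In both groups it was high in the animals with the highest Jchain, at 311 in B3 and 557 in BD6, and it was also high in BD3 (360), where Jchain was 55.1.

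The composition of the B cell signal was compared by ratios of members within each animal, a comparison chosen after the values were seen. The ratio of Cd79a to Cd79b was 1.81 ± 0.365 (SD, n = 6) in bonded, 1.60 ± 0.266 (n = 6) in bond-disrupted and 1.49 ± 0.211 (n = 5) in virgin animals. Ms4a1 over Cd79b was 0.413 ± 0.0535, 0.385 ± 0.0711 and 0.379 ± 0.0507. The smallest of the 15 exact two-sided permutation p-values was for Pax5 over Cd79b, at 0.0549 ± 0.00694 in virgins (n = 5) and 0.0446 ± 0.00930 in bond-disrupted animals (n = 6), with p = 0.0736 and an adjusted p of 0.602. The ratio of Mzb1 to Cd79b was 0.263 ± 0.0670 (n = 5) in virgins, 0.180 ± 0.103 (n = 5) in bond-disrupted and 0.247 ± 0.153 (n = 6) in bonded animals, with exact permutation p adjusted to 0.602 or more in each of its comparisons.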

How the data were processed

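The authors deposited FPKM per gene and animal, and no read counts were used. The submitters' processing notes name FastQC, Trim Galore 0.4.5, STAR 2.7.2, SAMtools 1.5, featureCounts and Subread 1.5.3. The genome build and annotation are not given in the sources used here. Biotypes and gene spans came from RefSeq (assembly ASM782708v3).

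Lengths, depths and reads were recovered from the FPKM, mainly as the lengths at which values sharing a divisor become whole reads. Among such lengths, the choice favoured those that put their genes near their usual level across animals, whatever the group. Where no length gave whole reads, that level alone could set it. In each animal 97.8% to 98.7% of low values came within 0.01 of a whole number, under lengths chosen for giving whole reads. Of 1463 small RNA lengths, 1445 equal RefSeq's, which also set the first depths and capped the search. Neither is therefore an independent check of the recovery. A value was left out where the best length led the next by a log likelihood under 2. The recovery and the fit were also run on simulated data, and the outcome is not reported here.

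limma 3.58.1 was fitted to log2(FPKM with own length + 1) over the 3 groups, for genes at 1 FPKM or more in at least 1 animal and with 3 or more values in both groups compared, with Benjamini-Hochberg adjustment over all genes. Missing values were dropped, and for voom they were filled to set weights only. The members and lists were chosen with earlier results of these data known. Named are the members, the 3 genes of a list with the smallest p (of marker lists, T cells in full and otherwise those that bear on a result), the defining genes Tnfrsf17, Prdm1, Xbp1, Irf4, Cxcl13 and Tnfsf13b, and the 3 genes most like each member. Some genes that the rule names are not reported here. Rag1, Rag2, Derl3, Ebf1, Bcl6, Fcer2 and Tnfrsf13c were named after their values were seen. The immunoglobulin rows and promoters were not analysed here. P-values measure the spread between single animals.

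Same-numbered animals are relatives in the paper. Of their 16 pairs, 7 had deviations from the group means that correlated above 0.1 (r from -0.329 to 0.453 over 10514 genes). Of the 40 pairs of animals of the same group, none were alike within sampling noise (chi-square per degree of freedom of at least 22.2); pairs across groups were not compared.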

Additional observations from a re-analysis of the deposited data

Results flagged for a closer look

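Jchain in B3 measured 400 FPKM, and the nearest bonded animal, B6, measured 149, a gap of 0.662 of the group's range. Jchain in BD6 measured 312 FPKM, and the nearest bond-disrupted animal, BD3, measured 55.1, a gap of 0.836 of the range. Both gaps exceed Dixon's critical value of 0.625 for 6 samples. These were 2 of the 20 groups of values checked, and chance flags about 1 in 20 where values are normally distributed. On the log2 scale the gaps were 0.336 and 0.413 of the range, both under the critical value. Mzb1 was 13.9 FPKM in B3 and 7.69 in BD6, the highest of their groups, and Pigr was 311 and 557.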

How the results depend on the processing

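With 5 or 6 animals per group, the intervals of most members span more than a doubling in width, and Jchain could be settled in 1 virgin only. Over 19 comparisons of members, 530 of 570 values under the alternatives kept their direction and 40 reversed, all of them uncalled, and no member was called under any of them (smallest adjusted p 0.543). Part of the 530 could not reverse. Leaving out an animal of the group not compared, a trend, another filter or a fit of only the 2 groups leaves the fold change of a member as it was. The count of called genes rose from 0 with FPKM as deposited, to 40 for bond-disrupted against bonded animals, 113 for virgin against bonded and 35 for virgin against bond-disrupted animals, where the borrowed lengths remain in the values. With no fold limit the counts were 1, 4 and 2. For the comparisons with virgins they were 2 and 2 with a pseudocount of 0.1 and also of 0.01, and 1 and 1 with voom and with the replicate block; with only the 2 groups in the fit it was 1 for virgin against bonded. The block moved no call of a member. Leaving out 1 animal gave 0 to 1 called genes in each comparison, with the 1 called without B6 (bond-disrupted against bonded), without BD1 or V6 (virgin against bonded) and without BD5 or BD6 (virgin against bond-disrupted).

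As deposited, the following values reversed: Cd79a -0.12, Ms4a1 -0.71, Pax5 -0.44 and Cxcr5 -0.65 for virgin against bonded; Cd79b -0.57, Ms4a1 -0.69, Pax5 -0.86 and Cxcr5 -0.08 for virgin against bond-disrupted; and Pax5 0.42 and Cxcr5 -0.57 for bond-disrupted against bonded animals. With the additive fit, Cd79a became -0.03 (virgin against bonded), Ms4a1 0.18 and Pax5 0.03 (bond-disrupted against bonded). Pax5 in that comparison was also 0.05 with quantile normalization and 0.01 with the median-ratio factor. The cause of these shifts was not tested beyond the lengths. Leaving out 1 animal moved bond-disrupted against bonded values over -0.38 to 0.17 (Cd79a), -0.21 to 0.35 (Cd79b), -0.32 to 0.30 (Ms4a1), -0.19 to 0.13 (Pax5) and -0.53 to 0.17 (Mzb1), virgin against bonded over -0.18 to 0.24 (Cd79a) and -0.03 to 0.38 (Ms4a1), and virgin against bond-disrupted over -0.09 to 0.38 (Cd79a), -0.01 to 0.55 (Cd79b) and -0.09 to 0.52 (Ms4a1).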
